A study of Mus musculus with 9 samples.

Results

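The Hoxb genes Hoxb1 to Hoxb9 were followed in LSKs, the Lin-lo Sca1+ Kit+ fraction of mouse bone marrow that holds haematopoietic stem cells and multipotent progenitors. The members were taken by name alone, as the 9 rows of these symbols among the 24060 named rows of a table of RNA-seq read counts. All 9 were in the table, and 7 passed the filter on low counts and were tested, whereas Hoxb1 and Hoxb9 did not pass it. The 9 libraries came from 3 groups, which were control (n = 3), NHD13 (n = 2) and NHD13/MSI2 (n = 4). The control marrow was C57BL/6. The NHD13 marrow carried a NUP98-HOXD13 fusion transgene driven by the Vav promoter, which is active throughout the blood system. The NHD13/MSI2 marrow carried the same transgene together with a doxycycline-inducible MSI2 allele at Col1a1 and the ROSA26-rTTA activator that the inducible allele needs. In each group the donor marrow was transplanted, with CD45.1 helper cells, into lethally irradiated CD45.1 recipients. All recipients were fed doxycycline, and CD45.2 donor LSKs were sorted after 3 months of induction. The labels give an age of 4 months and the strain C57BL/6 for all 9 samples. The paper gives the same length of time as time since transplantation, so the labelled age need not be the age of the mice or of the cells. Whether the NHD13 donors also carried rTTA is not stated, nor is it stated that the libraries of a group came from separate mice, so that the p-values below measure the spread between libraries.

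Hox genes encode transcription factors that bind DNA through the homeodomain and that set position along the body axis of the embryo. They lie in 4 clusters, and within a cluster the order of the genes follows the order in which they are used, from the early, anterior genes at the Hoxb1 end to the late, posterior genes at the Hoxb9 end. In bone marrow, Hox genes are best known for expression in stem and early progenitor cells that is lost on maturation. HOXB4 is known for its capacity to expand haematopoietic stem cells when overexpressed, Hoxb5 as a marker of long-term stem cells, and Hoxb8 for its capacity to hold myeloid progenitors in an immature, dividing state. NUP98-HOX fusions are known for keeping Hox genes switched on in progenitors.

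In the GENCODE M21 annotation of GRCm38 the 9 members stood on the plus strand of chromosome 11, with Hoxb9 first (chr11:96271457-96276595), followed by Hoxb8 (chr11:96281905-96285315), Hoxb7 (chr11:96286623-96290162), Hoxb6 (chr11:96292476-96301569), Hoxb5 (chr11:96303336-96306121), Hoxb4 (chr11:96318267-96321638), Hoxb3 (chr11:96323326-96347930), Hoxb2 (chr11:96350525-96354012) and Hoxb1 (chr11:96365752-96368256). The submitters' processing notes name another build, mm9, so these positions describe the genes and are not those used for counting. The homeobox, the 180 bases that encode the homeodomain of 60 residues, is the part that the members share. It is shown for the member found in control libraries alone (Hoxb2) and for the pair that was higher in NHD13/MSI2 than in control (Hoxb7 and Hoxb8), from the GENCODE M21 transcripts, with bases 142 to 153, within the helix that contacts DNA, in capitals.
Hoxb2: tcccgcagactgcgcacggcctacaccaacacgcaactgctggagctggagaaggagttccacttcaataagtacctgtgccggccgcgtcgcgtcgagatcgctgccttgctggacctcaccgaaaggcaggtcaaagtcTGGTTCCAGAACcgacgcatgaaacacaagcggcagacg
Hoxb7: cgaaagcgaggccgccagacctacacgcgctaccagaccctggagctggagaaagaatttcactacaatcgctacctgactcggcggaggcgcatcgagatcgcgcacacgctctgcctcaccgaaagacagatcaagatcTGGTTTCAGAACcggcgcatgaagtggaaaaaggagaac
Hoxb8: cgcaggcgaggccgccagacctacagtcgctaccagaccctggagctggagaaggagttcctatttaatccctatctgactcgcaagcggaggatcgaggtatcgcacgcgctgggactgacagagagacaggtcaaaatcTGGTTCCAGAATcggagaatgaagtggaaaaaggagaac
Over the 180 bases Hoxb7 and Hoxb6 were identical at 88.9%, Hoxb7 and Hoxb8 at 80.6%, and Hoxb7 and Hoxb2 at 66.1%. Outside the cluster region, 50-base words of the members' transcripts recurred in other genes for 0.839% of Hoxb6, 0.437% of Hoxb4 and 0.233% of Hoxb9, and for none of the other 6 members, so that few reads of that length could be split with a paralog. Antisense genes shared more. Hoxb3os, on the minus strand, covered 52.9% of the exon bases of Hoxb3 and 27.3% of those of Hoxb2, and Hoxb5os covered 3.59% of those of Hoxb5. The share was larger for Hoxb2 when taken over its protein-coding transcripts. Of their 50-base words, read on either strand, 57.3% occurred in another gene of the region. For Hoxb3 and Hoxb5 this was 56.2% and 2.76%. Whether reads were counted by strand is not given in the sources used here. If they were not, reads of these partners cannot be told apart from those of Hoxb2, Hoxb3 and Hoxb5.

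The libraries held 19242153 to 23013493 counts, at which 1 count was worth 0.0400 to 0.0649 CPM (counts scaled to the size of the library, with TMM factors). Hoxd13, which the fusion transgene can contribute to, had 0 counts in the 3 control libraries and 13 to 25 counts in the 6 others. Msi2 read 77.1 to 241 CPM in the libraries labelled NHD13/MSI2, with 3 of the 4 below every library of control (223 to 316 CPM) and NHD13 (111 and 139 CPM), so it does not check the label; this count need not hold the transcript of the inducible allele. The positive markers of the gate are Kit and Sca1. Kit was at 908 CPM or more in all 9 libraries and Ly6a, which encodes Sca1, at 48.3 CPM or more. The means of Ly6a were 85.8 CPM in control, 58.7 CPM in NHD13 and 260 CPM in NHD13/MSI2, without a call in any comparison. Cd34 and Flt3 were read beside them and are not part of this gate. Cd34 was lower than in control in both other groups, with means of 1599 CPM in control, 459 CPM in NHD13 (edgeR adjusted p = 0.00572) and 763 CPM in NHD13/MSI2 (edgeR adjusted p = 0.00457). Flt3 was lower in NHD13/MSI2 than in control, at 152 against 614 CPM (edgeR adjusted p = 0.00497), and at 289 CPM in NHD13. The markers of other stages moved with the groups. Of 12 genes of stem cells, 8 were lower in NHD13/MSI2 than in NHD13 (2.58% of all genes tested) and 10 were lower than in control (6.55%), whereas Mecom was higher than in control, at 1366 against 115 CPM (edgeR adjusted p = 0.000421). The summed level of 10 genes of granulocyte and monocyte progenitors was 1789 to 2525 CPM in control, 3775 to 4588 CPM in NHD13 and 9613 to 16050 CPM in NHD13/MSI2. Most of it was Mpo, with means of 1549, 3383 and 10790 CPM. Of the 10 genes, 4 were higher in NHD13/MSI2 than in control (4.49% of all genes tested) and 2 than in NHD13 (0.584%). There was no call for Elane, Ms4a3 or Cebpe. The summed level of 7 B cell genes was 46.6 to 62.8, 83.7 to 131 and 262 to 448 CPM in the same order. Most of it in NHD13/MSI2 was Cd79a and Cd79b, with means of 184 and 151 CPM. Of these genes, Cd79a, Cd79b and Pax5 were higher in NHD13/MSI2 than in control (4.49% of all genes tested), and Cd79b than in NHD13 (0.584%). No call was made for Ebf1, Igll1 or Vpreb1. The means of these last 3 were lower in NHD13/MSI2 (0.257, 0.152 and 0.613 CPM) than in control (1.52, 1.70 and 0.739 CPM). The summed level of 7 T cell genes was 38.8 to 50.4, 204 to 339 and 66.4 to 119 CPM, with Cd3e at 0 in control. Most of it was Lck, with means of 41.3, 192.5 and 71.05 CPM. Lck alone was called, higher in NHD13 than in control (0.824% of all genes tested) and lower in NHD13/MSI2 than in NHD13 (2.58%). Tcf7 differed between the NHD13 libraries, at 1.33 and 138.6 CPM. Cd3d, Cd3e and Cd3g were at 0.698 CPM or less in all 9 libraries. The summed level was 879 to 2406, 134 to 508 and 197 to 606 CPM for 6 neutrophil genes. For 7 erythroid genes it was 11.4 to 16.2, 2.62 to 11.8 and 0.549 to 3.76 CPM, and for 6 megakaryocyte genes 81.4 to 225, 87.0 to 707 and 16.4 to 46.5 CPM. In bulk RNA fewer cells of a type and less RNA per cell cannot be told apart, and the part of these cell types in the Hoxb values was not tested. NHD13/MSI2 replicate 4 stood apart from the other 3 libraries of its group, with a TMM factor of 0.785 against 0.969 to 0.973, Gapdh at 96.1 CPM against 321 to 380 CPM, and a chi-square per gene of 398 to 426 in its pairs against 18.8 to 32.3 among the other pairs of the group. The chi-square was 24.95 to 44.28 in the control pairs and 74.95 between the 2 NHD13 libraries. These 2 also had the lowest Pearson correlation of log2 CPM within a group, at 0.9365, with 0.9435 to 0.9488 in the pairs of replicate 4. In control replicates 1 and 3 Xist read 888 and 866 CPM, against 2.33 CPM or less in the other 7 libraries, and the Y-linked gene Eif2s3y read 0.123 and 0.0400 CPM against 122 CPM or more. Control replicate 2 was thus the only control library alike in these 2 genes to the NHD13 and NHD13/MSI2 libraries. Ddx3y, also Y-linked, read 229 CPM in control replicate 2 and 172 and 250 CPM in NHD13, but 3.83 to 17.6 CPM in NHD13/MSI2. All 9 samples are labelled LSK, but MPP_HSC is part of the name given to control libraries 2 and 3, and Bulk of that given to control library 1.

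In the libraries that carry NHD13, Hoxb7 and Hoxb8 had more reads than in control and Hoxb2 had none. With a Benjamini-Hochberg adjusted p under 0.01 in the quasi-likelihood test of edgeR, fitted to all 13355 genes tested, 3 of the 9 members were called in NHD13/MSI2 over control, in which 11.0% of all genes tested were called. They were Hoxb7 and Hoxb8, higher (4.49% of all genes tested), and Hoxb2, lower (6.55%). In NHD13 over control Hoxb7 alone was called, higher, with 1.03% of all genes tested (0.824% higher and 0.210% lower). No member was called in NHD13/MSI2 over NHD13, in which 3.17% of all genes tested were (0.584% higher and 2.58% lower). There 1 member was under an unadjusted p of 0.05 (Hoxb5), and DESeq2 called 0. In a joint test of the 3 groups Hoxb2, Hoxb7 and Hoxb8 were called, with 8.90% of all genes tested. At an adjusted p under 0.05 the members called were 4 in NHD13/MSI2 over control (20.6% of all genes tested), 2 in NHD13 over control (2.89%), 0 in NHD13/MSI2 over NHD13 (8.81%) and 4 in the joint test (18.5%). Both comparisons over control rest on the same 3 control libraries, so their values are given side by side and not as independent evidence.

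**Figure D1:**
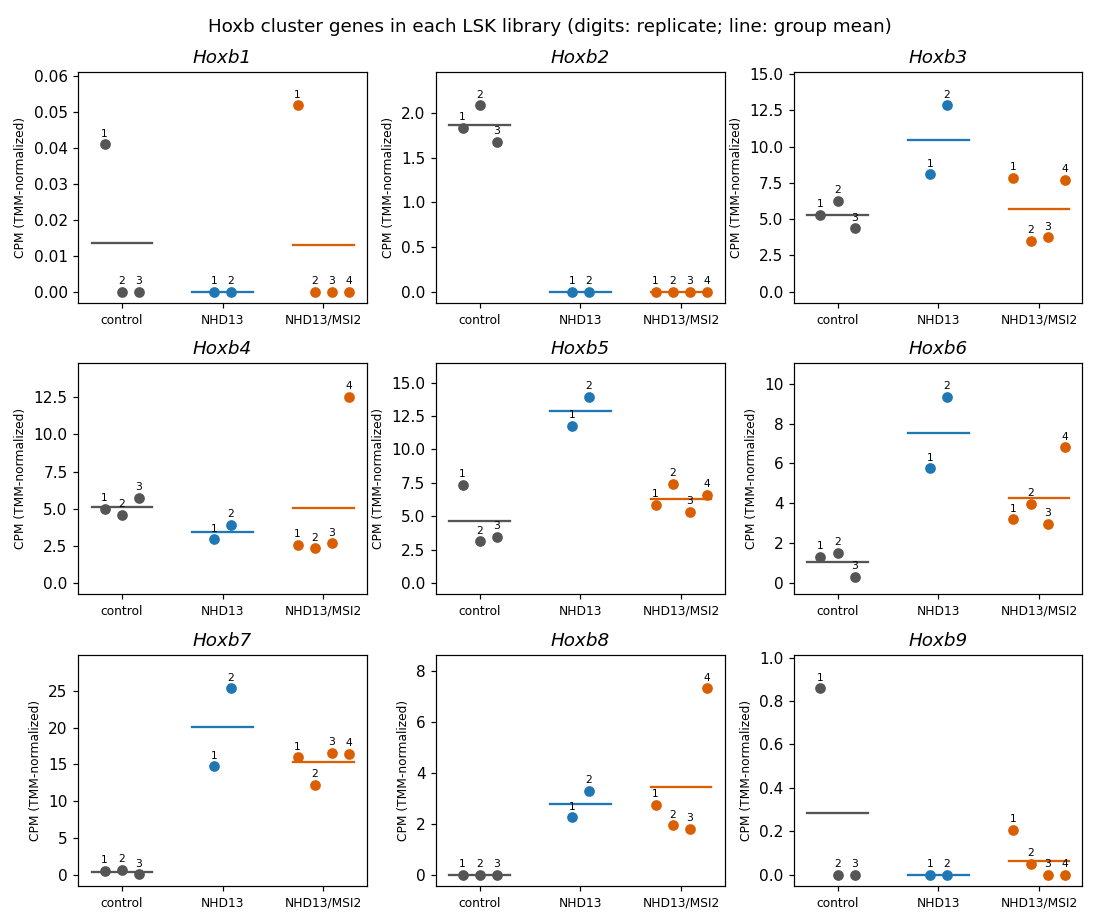
CPM (TMM-normalized, linear axes that differ between panels) of each Hoxb gene in each of the 9 libraries, with the replicate number above each point and a line at the group mean. Hoxb2 has reads only in the 3 control libraries, Hoxb8 only in the 6 NHD13 and NHD13/MSI2 libraries, and the point at 12.5 CPM in the Hoxb4 panel is NHD13/MSI2 replicate 4.

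Hoxb7 was the member with the highest level per length wherever NHD13 was present. In control it had 13, 13 and 1 counts, in NHD13 320 and 513, and in NHD13/MSI2 309, 245, 367 and 254. All 6 libraries with NHD13 were far above the 3 control libraries, and the ranges of NHD13 and NHD13/MSI2 overlapped. The means were 0.396 ± 0.311 CPM in control (SD, n = 3), 20.03 ± 7.51 CPM in NHD13 (n = 2) and 15.3 ± 2.09 CPM in NHD13/MSI2 (n = 4). Over control, Hoxb7 rose 38.7-fold by mean CPM in NHD13/MSI2 (log2 5.28, SE 0.62, edgeR adjusted p = 0.000499) and 50.6-fold in NHD13 (log2 5.66, SE 0.65, edgeR adjusted p = 0.00196). The first call held under each of 19 alternatives, and the second under 15 of 19. The second was lost without control replicate 1 (edgeR adjusted p = 0.0134), with only the groups compared (0.0197) and with the replicate block (0.0132). Against control replicate 2 alone, an alternative chosen after seeing the data, the log2 fold changes of Hoxb7 were 4.66 (edgeR adjusted p = 0.00926) and 5.01 (edgeR adjusted p = 0.0324).

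Hoxb8 had 0 counts in the 3 control libraries, 49 and 67 in NHD13, and 53, 39, 40 and 113 in NHD13/MSI2. Every library with NHD13 had reads of it and no control library did. A count of 0 allows up to 3 counts, at which control would stand at 0.128 CPM on average, a floor that covers counting error only. Against it the mean of 3.46 ± 2.62 CPM in NHD13/MSI2 (SD, n = 4) was at least 26.9-fold higher (edgeR adjusted p = 0.00182), and that of 2.78 ± 0.747 CPM in NHD13 (n = 2) at least 21.7-fold higher, which did not pass the threshold (edgeR adjusted p = 0.0119). NHD13/MSI2 replicate 4 was the highest, at 7.33 CPM against 1.81 to 2.74 CPM. Without it the NHD13/MSI2 mean was 2.17 ± 0.503 CPM (SD, n = 3), and Hoxb8 was then called in both comparisons (edgeR adjusted p = 0.000849 in NHD13/MSI2 and 0.00381 in NHD13). Against control replicate 2 alone neither passed the threshold (edgeR adjusted p = 0.0582 and 0.255).

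Hoxb6, which lies next to Hoxb7, had the same order of groups at a lower size. It had 32, 32 and 8 counts in control, 125 and 189 in NHD13, and 62, 80, 66 and 105 in NHD13/MSI2. No library with NHD13 fell within the control range. The means were 1.05 ± 0.640 CPM (SD, n = 3), 7.54 ± 2.54 CPM (n = 2) and 4.25 ± 1.76 CPM (n = 4). The log2 fold changes over control were 2.02 in NHD13/MSI2 (SE 0.57, edgeR adjusted p = 0.0336) and 2.84 in NHD13 (SE 0.64, edgeR adjusted p = 0.0505), neither past the threshold, although DESeq2 called both (adjusted p = 0.00209 and 0.000646).

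Hoxb5 was highest in NHD13. It had 180, 66 and 87 counts in control, 256 and 282 in NHD13, and 113, 149, 118 and 102 in NHD13/MSI2. Both NHD13 libraries were above the other 7, and the control range, which replicate 1 widened, overlapped that of NHD13/MSI2. The means were 4.66 ± 2.35 CPM in control (SD, n = 3), 12.9 ± 1.53 CPM in NHD13 (n = 2) and 6.31 ± 0.915 CPM in NHD13/MSI2 (n = 4). The log2 fold change of Hoxb5 in NHD13/MSI2 over NHD13 was -1.03 (SE 0.37, unadjusted p = 0.0201, edgeR adjusted p = 0.133). In NHD13 over control it was 1.46 (SE 0.39, edgeR adjusted p = 0.0994) and in NHD13/MSI2 over control 0.44 (SE 0.34, edgeR adjusted p = 0.420). None of the 3 passed the threshold.

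Hoxb4, the member best known in stem cells, had 122, 97 and 144 counts in control, 64 and 79 in NHD13, and 50, 47, 59 and 193 in NHD13/MSI2. The first 3 NHD13/MSI2 libraries and both NHD13 libraries were below control, and NHD13/MSI2 replicate 4 was above every other library. The means were 5.12 ± 0.588 CPM (SD, n = 3), 3.42 ± 0.678 CPM (n = 2) and 5.03 ± 4.998 CPM (n = 4). The log2 fold change over control was -0.032 in NHD13/MSI2 (SE 0.60, edgeR adjusted p = 0.982) and -0.58 in NHD13 (SE 0.74, edgeR adjusted p = 0.881). This value was decided by 1 library. Without replicate 4 the NHD13/MSI2 mean of Hoxb4 was 2.53 ± 0.169 CPM (SD, n = 3) and the log2 fold change over control -1.01 (SE 0.30, edgeR adjusted p = 0.0336), which did not pass the threshold either.

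Hoxb3 had 129, 132 and 109 counts in control, 176 and 260 in NHD13, and 152, 70, 83 and 119 in NHD13/MSI2. The NHD13 libraries were the highest, and those of NHD13/MSI2 lay on both sides of control, with replicates 1 and 4 above it at 7.86 and 7.72 CPM and replicates 2 and 3 below it at 3.49 and 3.76 CPM. The means were 5.30 ± 0.953 CPM (SD, n = 3), 10.5 ± 3.36 CPM (n = 2) and 5.71 ± 2.41 CPM (n = 4). The log2 fold change of Hoxb3 was 0.98 in NHD13 over control (SE 0.44, edgeR adjusted p = 0.381), 0.11 in NHD13/MSI2 over control (SE 0.38, edgeR adjusted p = 0.882) and -0.88 in NHD13/MSI2 over NHD13 (SE 0.42, edgeR adjusted p = 0.260).

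Hoxb2, known for its part in patterning the hindbrain, was present in control alone. It had 45, 44 and 42 counts in the 3 control libraries and 0 counts in the 6 libraries with NHD13. The control mean was 1.87 ± 0.206 CPM (SD, n = 3). Against the floor of 3 counts, at 0.159 CPM in NHD13/MSI2 and 0.143 CPM in NHD13, Hoxb2 was at least 11.8-fold lower in NHD13/MSI2 (edgeR adjusted p = 0.00475) and at least 13.1-fold lower in NHD13, where it did not pass the threshold (edgeR adjusted p = 0.0521). The call in NHD13/MSI2 needed all 3 control libraries, as it was lost without control replicate 1, 2 or 3 (edgeR adjusted p = 0.0246, 0.0236 and 0.0230), although each of these libraries held a like number of reads. Against control replicate 2 alone, at 44 counts, the edgeR adjusted p was 0.177 in NHD13/MSI2 and 0.756 in NHD13. The part of Hoxb3os in the Hoxb2 counts was not tested.

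The members at both ends were close to absent. Hoxb1, whose product acts early in the hindbrain, had 1 count in control replicate 1, 1 count in NHD13/MSI2 replicate 1 and 0 counts in the other 7 libraries, all under the floor. Hoxb9 had 21 counts in control replicate 1, 4 and 1 counts in NHD13/MSI2 replicates 1 and 2, and 0 counts in the other 6 libraries. Its control mean of 0.286 ± 0.496 CPM (SD, n = 3) thus came from 1 library, which was also the highest of the control libraries in Hoxb5, at 7.36 CPM against 3.13 and 3.48 CPM.

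**Figure D2:**
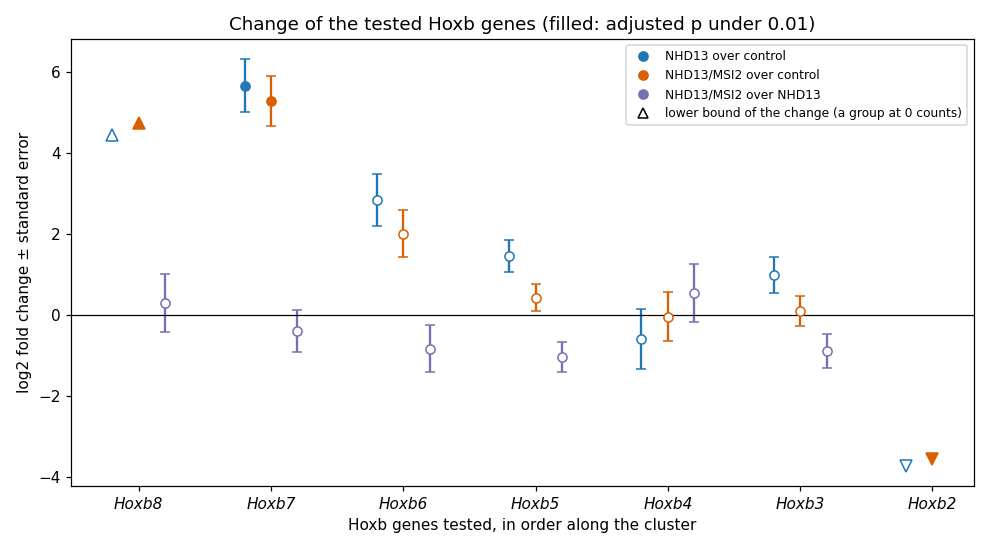
Log2 fold change with its standard error for the 7 Hoxb genes tested, in the order of the cluster, in the 3 comparisons; triangles mark the least change that 3 counts allow where a group had 0 counts, and filled symbols an edgeR adjusted p under 0.01. Hoxb8 and Hoxb7 stand highest over control (log2 5.66 and 5.28 for Hoxb7), and Hoxb2 lowest, while no symbol of NHD13/MSI2 over NHD13 is filled.

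In NHD13 over control 7 of the 9 members had groups with no overlap in CPM (5 higher and 2 lower), where 37.4% of all genes tested had none. For NHD13/MSI2 over control it was 4 of the 9 members (Hoxb6, Hoxb7 and Hoxb8 higher, Hoxb2 lower) against 35.7% of all genes tested, and in NHD13/MSI2 over NHD13 it was 2 of the 9 (Hoxb3 and Hoxb5, lower) against 29.9%. The median log2 fold change of the 7 members tested was 1.46 in NHD13 over control, 0.44 in NHD13/MSI2 over control and -0.39 in NHD13/MSI2 over NHD13, beside 0.017, -0.011 and -0.028 over all genes tested. The first 2 medians share their control libraries and the members that pass the filter include those seen in 1 condition alone, so that these medians are descriptions.

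The level of the cluster per length was higher in the libraries with NHD13, and Hoxb5 to Hoxb9 made up most of it there. Summed over the 9 members, CPM per kb of exon was 6.36 ± 1.28 in control (SD, n = 3), 26.3 ± 8.04 in NHD13 (n = 2) and 19.0 ± 4.83 in NHD13/MSI2 (n = 4). The sum of Hoxb1 to Hoxb4 was 3.73 to 3.87 CPM per kb in control and 3.05 and 4.54 in NHD13, on both sides of control. In NHD13/MSI2 it was 2.88, 1.74 and 1.92 in replicates 1, 2 and 3, below every control library. Replicate 4, which stood apart above, was at 6.70, so the ranges of NHD13/MSI2 and control overlapped through this library alone. The sum of Hoxb5 to Hoxb9 was 1.44 to 3.99 CPM per kb in control, 17.5 and 27.4 in NHD13, and 13.4 to 19.3 in NHD13/MSI2. These genes made up 27.7% to 51.7% of the cluster in control, 85.2% and 85.8% in NHD13, and 74.2% to 88.6% in NHD13/MSI2, in which replicate 4 was the lowest. Hoxb9, at the posterior end, had little part in this, with a mean of 0% in NHD13 and 0.143% in NHD13/MSI2. In control the order of the mean levels was Hoxb4 (1.99 CPM per kb), Hoxb5 (1.67), Hoxb3 (1.25), Hoxb2 (0.536), Hoxb6 (0.534), Hoxb7 (0.257) and Hoxb9 (0.111), and of these neighbours the ranges of Hoxb3 and Hoxb2 alone did not overlap. In NHD13 the order was Hoxb7 (12.97 CPM per kb), Hoxb5 (4.61), Hoxb6 (3.84), Hoxb3 (2.46), Hoxb4 (1.33) and Hoxb8 (1.056), with no overlap between Hoxb7 and Hoxb5 or between Hoxb3 and Hoxb4. In NHD13/MSI2 it was Hoxb7 (9.92 CPM per kb), Hoxb5 (2.26), Hoxb6 (2.16), Hoxb4 (1.96), Hoxb3 (1.34) and Hoxb8 (1.31), and among these Hoxb7 alone was set off from its neighbour.

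**Figure D3:**
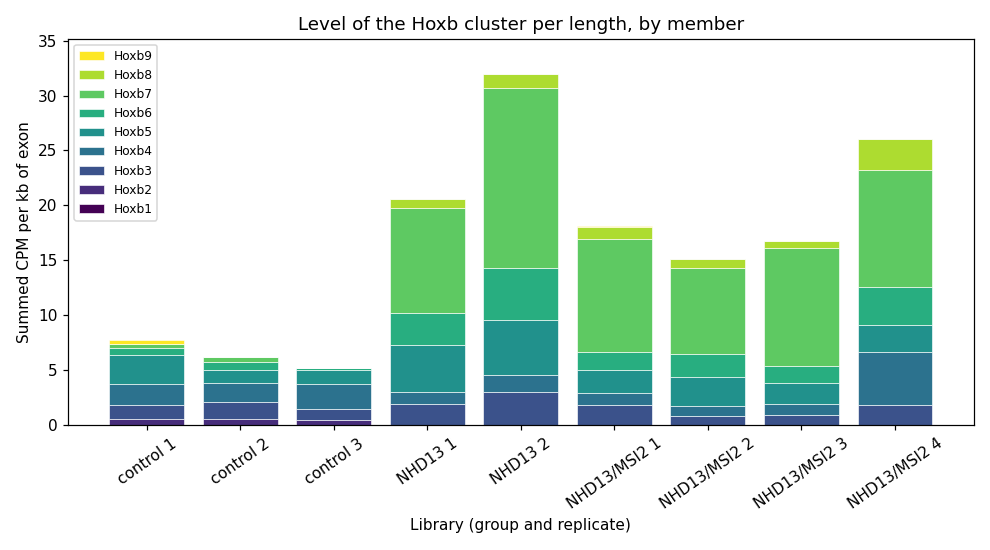
Stacked bars of CPM per kb of exon for the 9 Hoxb genes in each library. The 3 control bars reach 5.19 to 7.72 and are mainly Hoxb3, Hoxb4 and Hoxb5, whereas the 6 others reach 15.1 to 31.96 with Hoxb7 as the largest segment.

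Hoxb6, Hoxb7 and Hoxb8 also varied together over the 9 libraries, with a Pearson correlation of log2 CPM of 0.933 between Hoxb6 and Hoxb7, 0.949 between Hoxb7 and Hoxb8 and 0.874 between Hoxb6 and Hoxb8. Hoxb2 ran against them, with -0.959 for Hoxb7 and -0.974 for Hoxb8, and Hoxb4 followed none of the other members, with -0.305 to 0.310. The 9 libraries fall into the groups and share them, so these correlations describe the group pattern and the libraries that stand apart. Among 10967 other genes with a mean of at least 50 counts, those with the pattern most like the mean Z-score of the members tested were Mapkapk5 (r = 0.972), Tef (0.953), Cables2 (0.930), Nsmaf (0.927), Pkd2l2, Ctdnep1, Txndc5 and Dqx1 (0.915). The genes most like Hoxb4 were Per3 (r = 0.986), Umps (0.981), Ccdc173 (0.980), 4931406H21Rik (0.979), Zwilch, Lig1, Nsd1 and Pfas (0.967), in a pattern that NHD13/MSI2 replicate 4 leads.

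The other Hox clusters were set beside Hoxb with the same test. Of 29 genes of Hoxa, Hoxc and Hoxd, 15 were tested. In NHD13/MSI2 over control 8 rose and 1 fell, in NHD13 over control 6 rose and none fell, and in NHD13/MSI2 over NHD13 none rose and 1 fell, beside the shares of all genes tested given above. Among the 8 was Hoxd13, which the fusion transgene can contribute to. Hoxc4, Hoxc5 and Hoxc6, like Hoxb7 and Hoxb8, were close to absent in control and present in every library with NHD13. Hoxc5 was at a mean of 0.140 CPM in control, 41.3 in NHD13 and 25.8 in NHD13/MSI2, and it rose 184-fold in NHD13/MSI2 over control (edgeR adjusted p = 2.63e-05). Hoxc4 rose 65.0-fold (edgeR adjusted p = 0.000132), and Hoxc6, at 0 counts in control, was at least 77.4-fold higher (edgeR adjusted p = 0.000243). Hoxc8 was at 13.2 and 65.1 CPM in NHD13 and at 0.517 to 1.86 CPM in NHD13/MSI2, and it fell by 5.38 on the log2 scale in NHD13/MSI2 over NHD13 (SE 0.71, edgeR adjusted p = 0.00290), whereas no Hoxb member was called there. Hoxa7, the Hoxa gene of the same rank as Hoxb7, rose 9.18-fold in NHD13/MSI2 over control (edgeR adjusted p = 0.000166) from a level of 17.9 CPM. Hoxa10 fell by 4.14 on the log2 scale (SE 0.54, edgeR adjusted p = 0.000835), with 25.5 to 33.4 CPM in control, 22.9 and 3.75 CPM in the NHD13 replicates 1 and 2, and 1.29 to 2.29 CPM in NHD13/MSI2. 

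**Figure D4:**
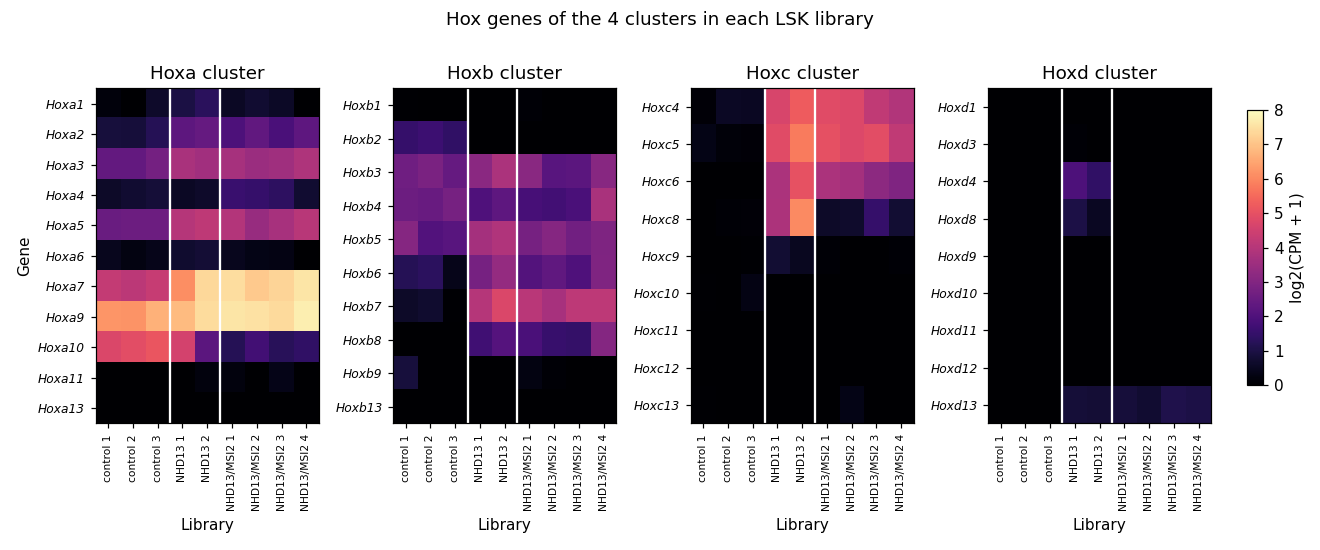
Log2(CPM + 1) of the Hox genes of the 4 clusters (rows) in the 9 libraries (columns), with white lines between control, NHD13 and NHD13/MSI2. Hoxb7, Hoxb8 and Hoxc4 to Hoxc6 light up in the 6 libraries with NHD13, Hoxb2 only in the 3 control libraries, and Hoxc8 mainly in the 2 NHD13 libraries.

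Hox proteins bind DNA together with the TALE cofactors Meis and Pbx. The calls of the lists below stand beside 11.0% of all genes tested in NHD13/MSI2 over control (4.49% higher and 6.55% lower), 1.03% in NHD13 over control and 3.17% in NHD13/MSI2 over NHD13. Of 9 such genes 7 were tested. Pbx3 rose over control in both comparisons, from 5.24 CPM in control to 134 CPM in NHD13 (25.6-fold, edgeR adjusted p = 1.41e-05) and 144 CPM in NHD13/MSI2 (27.5-fold, edgeR adjusted p = 4.56e-06). Meis1 fell in NHD13/MSI2 over both other groups. It was at 705 to 1015 CPM in control, 158 and 523 CPM in NHD13 and 4.16 to 11.7 CPM in NHD13/MSI2, where it fell by 5.69 on the log2 scale relative to NHD13 (SE 0.53, edgeR adjusted p = 0.000700). In the same comparison Hoxb7 and Hoxb8 were not called. Among 14 activators of the trithorax type, which keep Hox genes on, Mllt3 alone was called. It fell in NHD13/MSI2 over NHD13 (log2 -4.54, SE 0.70, edgeR adjusted p = 0.00548) and over control (edgeR adjusted p = 0.000922), and none was called in NHD13 over control. Among 18 Polycomb genes, which keep Hox genes off, Pcgf2 alone was called. It had 56 to 109 counts in control, 64 and 77 in NHD13 and 0 to 2 in NHD13/MSI2, at least 21.1-fold lower than in NHD13 (edgeR adjusted p = 0.00283) and at least 20.9-fold lower than in control (edgeR adjusted p = 0.000746). Of 13 genes known to induce Hox genes or to bind their promoters 10 were tested, and Rara (3.89-fold, edgeR adjusted p = 0.00540) and Usf1 (1.90-fold, edgeR adjusted p = 0.00683) rose in NHD13/MSI2 over control. Cdx1, Cdx2 and Cdx4 had 0 counts in all 9 libraries.

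Of the genes around the cluster the count table held 15, of which 9 were tested and 1 was called in NHD13/MSI2 over control (11.0% of all genes tested) and none in the other comparisons. Cdk5rap3 rose 1.87-fold in NHD13/MSI2 over control (edgeR adjusted p = 0.00851), and at 64.9 to 78.9 CPM in control and 69.8 and 77.7 CPM in NHD13 it had overlapping levels in those groups. Hoxb13, the next Hox gene beyond Hoxb9, had 0 counts in the 9 libraries, and Gm53, between them, had 1 count. The hairpin genes of the 2 miRNAs of the cluster, Mir196a-1 and Mir10a, also had 0 counts, which says nothing of the mature miRNAs.

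Of the 2 miRNAs, miR-196a is encoded beyond Hoxb9 and miR-10a between Hoxb5 and Hoxb4. The mature sequences (RefSeq, GRCm38.p6) are shown because a member of the cluster carries a match of nearly full length to one of them, with the seed, bases 2 to 8, in capitals. In the third line is that match, the stretch of Hoxb8 after the coding part, with the bases opposite the seed in capitals.
miR-196a-5p: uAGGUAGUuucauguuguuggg
miR-10a-5p: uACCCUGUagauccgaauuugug
Hoxb8 site: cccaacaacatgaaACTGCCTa
Of its 22 bases 21 were complementary to miR-196a-5p and the remaining one was a G:U pair. The best stretch of the same length in the other 8 members had 13 or 14 complementary bases. Hoxb8 had 0 counts in control with Mir196a-1 listed at 0 counts in every library, and the mature miRNA was not measured.

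Promoters from RefSeq (GRCm38.p6, 250 bases before to 50 after the start) were at hand for 3 of the 9 members, Hoxb1, Hoxb4 and Hoxb8. Those of Hoxb8 (chr11:96281655-96281954) and Hoxb4 (chr11:96318017-96318316) are shown, as the member that had no reads in control and a tested member without a call. TTTATNG, a motif of posterior Hox proteins, and CCAAT, bound by NF-Y, are in capitals.
Hoxb8: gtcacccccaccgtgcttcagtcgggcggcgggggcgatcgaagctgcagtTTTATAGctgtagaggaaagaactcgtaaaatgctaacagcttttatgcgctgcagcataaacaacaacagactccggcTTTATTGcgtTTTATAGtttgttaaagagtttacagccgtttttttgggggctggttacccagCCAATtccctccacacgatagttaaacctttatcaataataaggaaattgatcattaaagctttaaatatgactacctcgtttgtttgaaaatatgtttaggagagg
Hoxb4: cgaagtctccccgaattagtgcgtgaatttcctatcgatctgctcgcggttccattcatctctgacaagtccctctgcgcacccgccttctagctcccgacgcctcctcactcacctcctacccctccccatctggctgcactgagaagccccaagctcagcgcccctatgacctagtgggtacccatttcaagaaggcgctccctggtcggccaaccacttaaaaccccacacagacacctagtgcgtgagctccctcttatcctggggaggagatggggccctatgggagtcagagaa
The letters TTTATNG, searched on both strands, were found 3 times in the Hoxb8 promoter, starting 199, 120 and 110 bases before the start, and 10.9% of 32851 promoters held them. The TATAAA motif (13.6% of promoters) overlapped those at 199 and 110 bases on the other strand, and CCAAT (37.4% of promoters) was found once, 57 bases before the start. The Hoxb4 promoter held none of these 3 motifs, and neither promoter held TGATTNAT, a motif of Hox and Pbx pairs (3.22%), or CACGTG, bound by Usf proteins (7.15%). The Hoxb1 promoter held CCAAT 2 times and none of the other 4. A match of letters is a description and does not show binding.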

How the data were processed

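RNA-seq counts of LSKs were analysed in 9 libraries of 3 groups, taken from the sample labels. Raw read counts for each gene symbol and library were deposited by the authors, neither normalized nor pooled; the submitters' processing notes name STAR, HTSeq, DESeq and mm9, and the annotation and strand setting are not given in the sources used here. The table had 24073 rows, of which 2 had no name and held 0.00305% to 0.00816% of a library. Names after the March genes (11942) were moved down by 2 rows, because 9 of 10 progenitor genes then had a mean of at least 1000 counts (1 to 5 under other moves) and Xist exceeded 1000 counts in 2 libraries, both with Eif2s3y under 100. The 13 rows that could not be settled (0.0253% to 0.0323% of a library) were left out. Hoxb names precede the March genes and were not moved, whereas later names such as Meis1, Mllt3, Pbx3, Pcgf2, Rara and Usf1 were.

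Counts were filtered by filterByExpr, scaled by TMM and fitted with edgeR 4.0.16 (R 4.3.3, limma 3.58.1) by the quasi-likelihood method with all 9 libraries and a mean per group; the prior degrees of freedom were 3.38. Genes were called at an adjusted p (Benjamini-Hochberg, over 13355 genes) under 0.01. Fold changes are ratios of mean CPM or fitted log2 values. Where every library of a group held 3 counts or fewer, the fold is a bound against that floor. CPM per kb used exon lengths of GENCODE M21. The fit was tested on simulated data. The text names the 9 members, up to 4 called genes of each list by size of change, and the 8 genes of most like pattern (log2 CPM, prior count 2). Hoxa7, Hoxa10, Hoxc8, Kit, Ly6a, Cd34, Flt3, Mecom, Elane, Ms4a3, Cebpe, Ebf1, Igll1, Vpreb1, Ddx3y, Hoxd13, Msi2, Gapdh, Xist, Eif2s3y, Tcf7, Cd3d, Cd3e and Cd3g were named after their values were seen. The values of 1 gene of the lists and 1 sequence are not reported here. The members and lists were chosen with earlier results of these data known. Alternatives were RLE factors, library totals, no filter, a mean of at least 50 counts, DESeq2 1.42.0, a robust fit, only the groups compared, the replicate number as a block, each library left out, a threshold of 0.05 and the names as deposited; control replicate 2 as the only control was added after seeing the data.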

Additional observations from a re-analysis of the deposited data

Results flagged for a closer look

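The Hoxb genes with over 3 counts in at least 1 of the 4 NHD13/MSI2 libraries were Hoxb3 to Hoxb9. Among them, 3 had a library whose gap to the nearest other exceeded Dixon's critical share of the range of the group. Chance gives such a gap in about 1 of 20 groups of independent, normally distributed values. Hoxb4 was at 12.53 CPM in replicate 4, with 0.968 of the range between it and the next library, and Hoxb8 was at 7.334 CPM in replicate 4, with 0.831 of the range. Both gaps fell in the same library, so they are not separate events. That library stood apart in its TMM factor and in Gapdh, and the part of this in the Hoxb values was not tested. Hoxb7 was at 12.22 CPM in replicate 2, the lowest of its group, with 0.858 of the range, although the other 3 libraries lay within 16.0 to 16.6 CPM.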

How the results depend on the processing

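In NHD13/MSI2 over NHD13 the count of Hoxb members called was 0 under each alternative. The count in NHD13/MSI2 over control was 3, and 1 with a mean of at least 50 counts, which removes Hoxb2 and Hoxb8, 1 with control replicate 2 as the only control, 4 with DESeq2 or at a threshold of 0.05, 2 with the replicate block, and 2 to 3 with each library left out (2 without control replicate 1, 2 or 3). In NHD13 over control it was 1, and 2 with library totals, with no filter or at a threshold of 0.05, 4 with DESeq2, 0 with only the groups compared, 0 with the replicate block, 0 with control replicate 2 as the only control, and 0 to 2 with each library left out (0 without control replicate 1 and 2 without NHD13/MSI2 replicate 4). In the joint test it was 3, and 1 with a mean of at least 50 counts, 5 with DESeq2, 1 with the replicate block, 0 with control replicate 2 as the only control, and 1 to 3 with each library left out (1 without control replicate 1, 2 or 3 or NHD13/MSI2 replicate 1 or 2). The calls of Hoxb2 and of Hoxb7 in NHD13 over control were lost under the replicate block (edgeR adjusted p = 0.0338 in NHD13/MSI2 over control for Hoxb2, 0.0132 for Hoxb7), but same-numbered libraries did not all deviate together (correlations -0.0716 to 0.194) and the numbers were not taken as pairs. Hoxb2 in NHD13/MSI2 over control was called under 13 of 18 alternatives, Hoxb8 under 17 of 18 and Hoxb7 under 19 of 19, and Hoxb7 in NHD13 over control under 15 of 19. With control replicate 2 alone, the adjusted p of Hoxb7 was 0.00926 in NHD13/MSI2 and 0.0324 in NHD13, and the lone library is assumed to vary like the others.

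The members that changed sign were not called in either direction. In NHD13/MSI2 over control Hoxb3 (log2 0.11) was -0.13 with library totals, -0.098 with the replicate block, -0.097 with control replicate 2 as the only control and -0.077 to 0.29 with each library left out. Hoxb4 (log2 -0.032) was 0.00059 with only the groups compared, 0.17 with control replicate 2 as the only control and -1.01 to 0.22 with each library left out. In NHD13/MSI2 over NHD13 Hoxb4 (log2 0.55) was -0.49 with the replicate block and -0.42 to 0.81 with each library left out, Hoxb8 (log2 0.31) was -0.25 with the block and -0.35 to 0.66 with each library left out, and Hoxb7 (log2 -0.39) was -0.70 to 0.099 with each library left out. The causes were not tested. At 0.0400 to 0.0649 CPM for 1 count, the depth limits Hoxb1, Hoxb2, Hoxb8 and Hoxb9 most. Where a member was at 0, a level under 3 counts was not detectable at this depth, and 2 NHD13 libraries limit both comparisons that use them.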
